A study of Lytechinus variegatus with 8 samples.

Results

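Metalloproteinases of the matrix and their inhibitors were followed in the 2 kinds of spine that the sea urchin Lytechinus variegatus carries, the long primary spines and the shorter secondary spines. Members were chosen by product name: matrix metalloproteinases (stromelysins, collagenases, matrilysins and hatching enzymes included), ADAM and ADAMTS proteins, astacin-type names (tolloid, bone morphogenetic protein 1, zinc metalloproteinase nas) and metalloproteinase inhibitors, without the SpAN and blastula protease names. This gave 72 of 26814 genes: 20 named matrix metalloproteinases, 4 ADAMs, 25 ADAMTS proteins, 14 genes with astacin-type names and 9 tissue inhibitors. No gene matched the name RECK. The RNA came from 4 wild-caught animals of the white-and-green color morph, with 50 primary spines or 100 secondary spines in a library, which gave 4 primary and 4 secondary libraries. No treatment or genotype is named for any of the animals, and their ages are not given in the sources used here. Each library number from 1 to 4 was taken to mark an animal that gave both kinds of spine.

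Matrix metalloproteinases are zinc-dependent enzymes that cut collagens and other proteins of the extracellular matrix, and tissue inhibitors of metalloproteinases bind their active site and block them. ADAM proteins sit in the cell membrane and release the outer parts of other membrane proteins. ADAMTS proteins are secreted relatives with thrombospondin repeats, known in vertebrates for cutting proteoglycans and trimming procollagens, and tolloid and bone morphogenetic protein 1 are astacins that process procollagens and chordin. In echinoderms the collagenous tissue at the spine base can change its stiffness, and a stiffening protein of sea cucumbers, tensilin, is related to the tissue inhibitors.

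Names were checked against the Pfam domains given in the deposited table. All 20 named matrix metalloproteinases carry the matrixin domain, the catalytic domain of this family, and 17 of them also carry hemopexin repeats. All 9 named inhibitors carry the inhibitor domain. Of the 14 genes with astacin-type names 7 carry the astacin domain, and 3 are neuropilin and tolloid-like proteins, which by name are membrane proteins and not proteases. Of the 25 ADAMTS names 4 are ADAMTS-like proteins, which carry no catalytic domain in the table. Several genes with full ADAMTS names also lack it there. LOC121407559, LOC121407762, LOC121410998, LOC121424101 and LOC121431810 list the propeptide alone, and the adt-1-like LOC121410576, LOC121427673 and LOC121427911 list no peptidase domain. The ADAM and ADAMTS genes with a catalytic domain number 17 together, all 4 ADAMs included. Names and best Swiss-Prot matches often point to different relatives, 48 members share their product name with another member, and how multiply aligned reads were counted is not stated in the sources used here. The split of reads among genes of 1 name is therefore uncertain. Another gene of the table overlaps 4 of the 47 tested members. The ADAMTS 3-like gene LOC121432030 is the 1 of these 4 that was called between the spines, and the gene on the other strand that overlaps it had 2 reads in all libraries together.

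Libraries held 9252184 to 10902546 counted reads. Enough reads for a test fell on 47 of the 72 members, and the other 25 had at most 116 reads over the 8 libraries. No read fell on 2 members. Levels below are CPM, counts per 1e6 counted reads, with TMM scaling unless they are called FPKM, the authors' value per gene length, which alone is used to compare genes with each other. Values after ± are SD over 4 libraries for levels and standard errors for log2 ratios. These standard errors were derived from the edgeR test, as the absolute log2 ratio divided by the square root of its F value. They are approximate, above all for genes with few reads in a group. Differences between the spines are log2 ratios of secondary to primary spines (log2 fold changes), positive where secondary spines were higher. Each p value of a gene comes from the quasi-likelihood test of edgeR after Benjamini-Hochberg adjustment over all genes tested.

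In primary spines the most abundant members were an ADAM 10-like sheddase, a TIMP 1-like inhibitor, an adt-1-like ADAMTS gene and a nas-13-like astacin. By mean FPKM over all libraries the ADAM 10-like gene LOC121410628 came first, with 77.0 ± 5.47 FPKM in primary and 56.4 ± 1.38 FPKM in secondary spines. The inhibitor LOC121410437 followed with 61.6 ± 13.4 and 40.8 ± 12.8 FPKM, then the nas-13-like gene LOC121407074 with 53.1 ± 16.5 and 38.5 ± 7.48 FPKM and the adt-1-like gene LOC121410576 with 62.4 ± 13.2 and 29.1 ± 6.66 FPKM. In primary spines the ranges of mean ± SD of neighbours in this order overlapped, while in secondary spines that of the ADAM 10-like gene lay above the others. Summed over its genes, the ADAMTS group had 118 to 148 FPKM in primary and 71.0 to 98.2 FPKM in secondary libraries, without overlap. The ADAM group had 102 to 112 and 79.7 to 91.9 FPKM and the inhibitors 124 to 144 and 81.5 to 120 FPKM, also without overlap. The CPM sum of all genes is set by the TMM scaling factor of a library and is not a measured level. It was 937000 to 963200 in secondary and 1017000 to 1112000 in primary libraries. The authors' FPKM also carry a scaling beyond library totals. The lowest primary and highest secondary sum of the inhibitors, 124 and 120 FPKM, lie close together. They come from primary library 4 and secondary library 1, whose scaling constants were 0.994 and 1.08 relative to total counts. The lack of overlap of the inhibitor sums is therefore given for the authors' scaling alone. How much of the gaps between group sums goes with scaling was not tested. The sums of the matrix metalloproteinases (78.9 to 161 and 99.2 to 110 FPKM) and of the astacin-type names (76.4 to 127 and 60.0 to 117 FPKM) overlapped between the spines. These sums rest on few genes, the 3 most abundant making up 94.1% of the ADAM, 93.2% of the astacin-type, 89.3% of the inhibitor, 69.9% of the matrix metalloproteinase and 58.6% of the ADAMTS total.

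**Figure D1:**
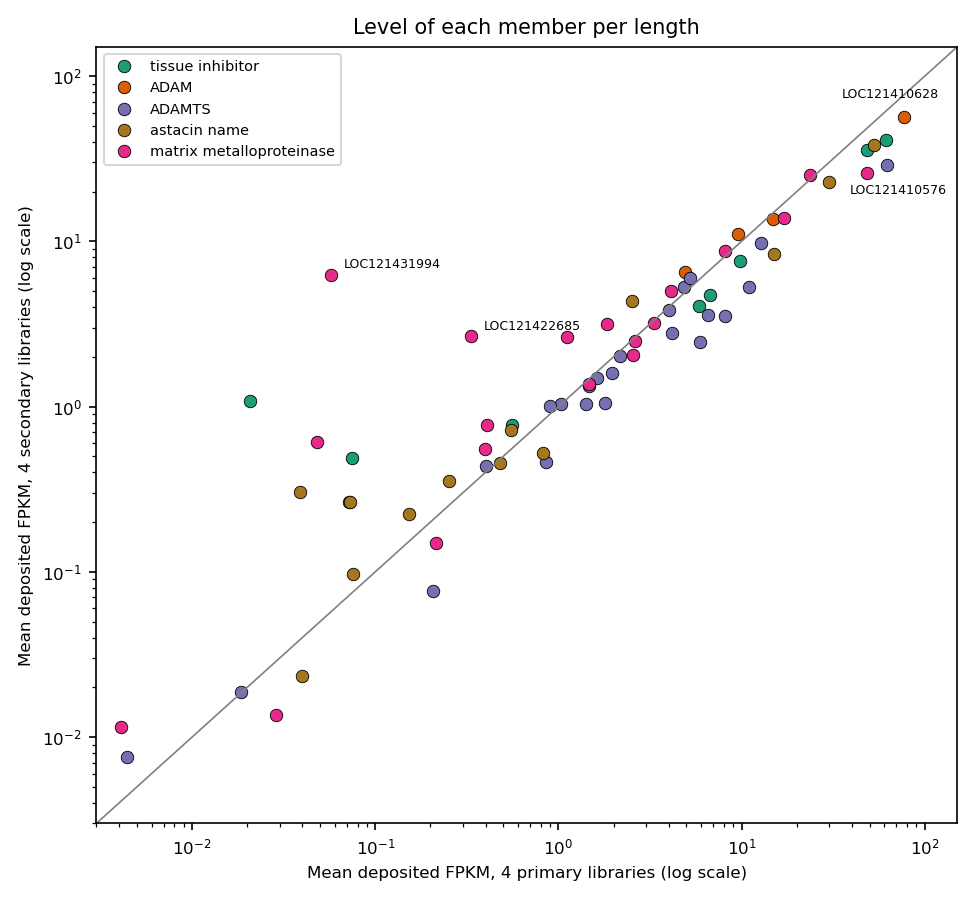
Mean deposited FPKM of each member in the 4 primary libraries (x axis, log scale) and in the 4 secondary libraries (y axis, log scale), coloured by group. The line marks equal values; 68 members are drawn and the 4 with a mean of 0 in a group are not. The stromelysin-3-like LOC121431994 and the collagenase-like LOC121422685 lie far above the line, and most ADAMTS genes above 1 FPKM lie on or below it.

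Secondary spines had higher levels of a pair of matrix metalloproteinases and lower levels of an ADAM 10-like gene and 3 ADAMTS genes. Of the 47 tested members 2 rose, 4 fell and 41 did not pass in the fit with group as its single term (edgeR, adjusted p below 0.05). That is 12.8% of the members, against 7.81% of all 16788 genes tested. Over all genes 5.88% were called higher and 1.93% lower. DESeq2, which gave an adjusted p for 60 members, called 2 of these higher and 6 lower, or 13.3%, against 10.8% of the 19671 genes it tested (7.25% higher, 3.58% lower). In fits that left out a library 1 to 2 members were higher and 0 to 3 lower, with 0 lower without secondary library 4 and 1 without secondary library 2. Since each animal gave both kinds of spine, a fit with the animal as a block was set beside it. It called 3 members higher and 10 lower, all 6 group-only calls among them. That is 27.7% of the members, against 24.1% of all genes, with 12.4% of all genes higher and 11.7% lower. The share of members called with the block was thus close to that of all genes. The median log2 ratio of the tested members was -0.129, against -0.026 for all genes, and with the block it was -0.112 against -0.021. Levels of the 2 spines did not overlap for 8 members, 2 higher and 6 lower in secondary spines, and 15.2% of all genes did not overlap (9.47% higher, 5.69% lower). RNA of whole spines was sequenced, so fewer cells of a type and less RNA per cell cannot be told apart for any of these values.

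**Figure D2:**
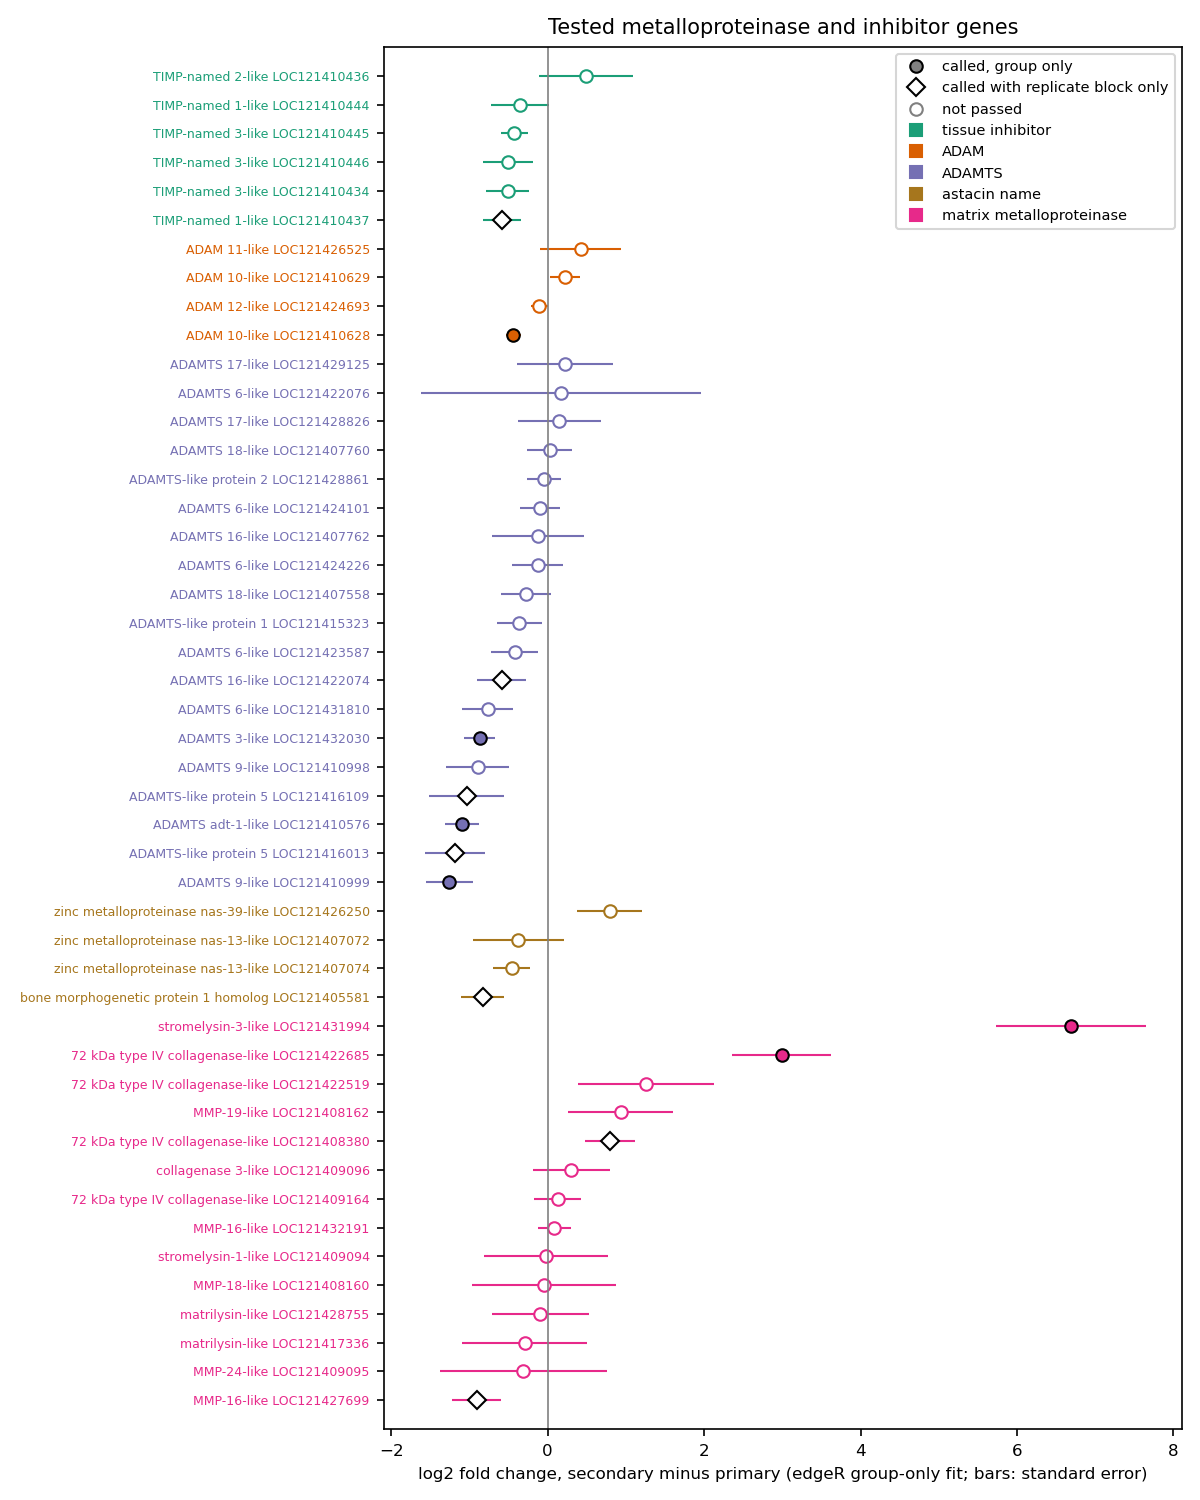
Log2 ratio (x axis, secondary minus primary, group-only fit) of the 47 tested members, by group and value, with bars of 1 standard error. Filled points passed the group-only test and diamonds passed with the animal as a block alone; 2 matrix metalloproteinases stand far to the right, and the called ADAMTS genes all lie left of 0.

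Among the matrix metalloproteinases, 2 of 14 tested genes rose, 0 fell and 12 did not pass. At an unadjusted p below 0.05 edgeR had 3 higher and 1 lower. DESeq2, with an adjusted p for 16 of these genes, called 2 higher and 0 lower. With the block 3 were higher and 1 lower. The higher calls are 14.3% of the tested genes in the group-only fit and 21.4% with the block, against 5.88% and 12.4% of all genes. The lower calls are 0% and 7.1%, against 1.93% and 11.7%. The median log2 ratio was 0.106. The stromelysin-3-like gene LOC121431994 (chromosome 18, 6348802 to 6357041, assembly Lvar_3.0, plus strand) had 0.536 CPM in primary library 1 and 0 in the other primary libraries, and 8.99, 14.3, 14.3 and 21.8 CPM in secondary libraries 1 to 4. Every secondary library lay above every primary one. Primary library 1 held all 5 reads of the primary spines, and the secondary spines had 627. Secondary CPM were 115 times primary CPM, with a 95% interval from 49.0 to 356 for counting error alone. Without primary library 1 the primary libraries had 0 reads and the difference was at least 145-fold, set against a floor of 3 counts over the group. The fitted log2 ratio over all libraries was 6.69 ± 0.96 (edgeR adjusted p = 0.00439). It was 10.23 without primary library 1, a value that depends on how a count of 0 is treated. The product name recalls vertebrate MMP11, but the Swiss-Prot match is the 50 kDa hatching enzyme of another sea urchin, Hemicentrotus pulcherrimus, which in embryos dissolves the fertilization envelope. That match is given for 4 members. The gene that carries the hatching enzyme name itself, LOC121431986, was close to undetected in both spines at 0.0536 and 0.0254 CPM and was not tested.

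The second gene that rose, the 72 kDa type IV collagenase-like LOC121422685 (chromosome 10, 18887232 to 18927280), shares its product name with 4 other members and is matched to mouse MMP24, a membrane-anchored member of the family. It had 1.82, 0.696, 0.946 and 0.533 CPM in the primary and 16.1, 3.65, 3.76 and 8.67 CPM in the secondary libraries of animals 1 to 4. The groups did not overlap, and the secondary libraries differed among themselves more than the primary ones did. From 38 primary and 339 secondary reads, secondary CPM were 8.19 times primary CPM (95% interval from 5.84 to 11.8 for counting error alone). Within animals the secondary value was 3.98 to 16.3 times the primary value, a wider range, and the gene differed among animals (edgeR adjusted p = 0.0313). On the log2 scale the ratio of the groups was 2.99 ± 0.63 (edgeR adjusted p = 0.0227). The call was lost in 5 of the 8 leave-out fits, those without primary 2, 3 or 4 or secondary 1 or 4 (highest edgeR adjusted p = 0.0695), and held with the block in each of 4 fits that left out an animal.

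Both genes were low in absolute terms. Their secondary levels of 6.29 ± 2.25 and 2.66 ± 1.94 FPKM lay below those of the most abundant matrix metalloproteinase, the MMP-16-like LOC121427699. This gene is matched to collagenase 3 of Xenopus and lies on chromosome 14 (9829736 to 9854737). It had 129, 129, 62.6 and 128 CPM in primary and 59.1, 60.4, 35.4 and 83.7 CPM in secondary spines of animals 1 to 4. Animal 3 was lowest in both spines, so that the groups overlapped, while within each animal the secondary value was 0.458 to 0.654 of the primary value. The log2 ratio was -0.91 ± 0.31 and did not pass without the block (edgeR adjusted p = 0.133). With the block it was -0.91 ± 0.11 (edgeR adjusted p = 0.0013), and the gene differed among animals (edgeR adjusted p = 0.00532). The other collagenase-like gene called with the block, LOC121408380, matched to MMP14, had 3.18 to 5.90 CPM in primary and 5.48 to 11.2 CPM in secondary libraries. Its blocked log2 ratio was 0.79 ± 0.19 (edgeR adjusted p = 0.0211, and 0.208 without the block). That call was lost without animal 1, 2 or 3 (highest edgeR adjusted p = 0.0867).

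The second MMP-16-like gene, LOC121432191, matched to mouse stromelysin-1, did not pass in either fit. Its levels were 57.7 ± 14.6 CPM in primary against 61.2 ± 12.4 CPM in secondary spines, with a log2 ratio of 0.09 ± 0.22 (edgeR adjusted p = 0.924). The other 9 tested matrix metalloproteinases that did not pass in either fit had log2 ratios between -0.31 and 1.26. The highest of these was that of the collagenase-like LOC121422519 (edgeR adjusted p = 0.532), which is another match to the hatching enzyme. The 6 matrix metalloproteinases that were too low for a test included those named MMP-2-like, MMP-21-like and 50 kDa hatching enzyme-like.

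**Figure D3:**
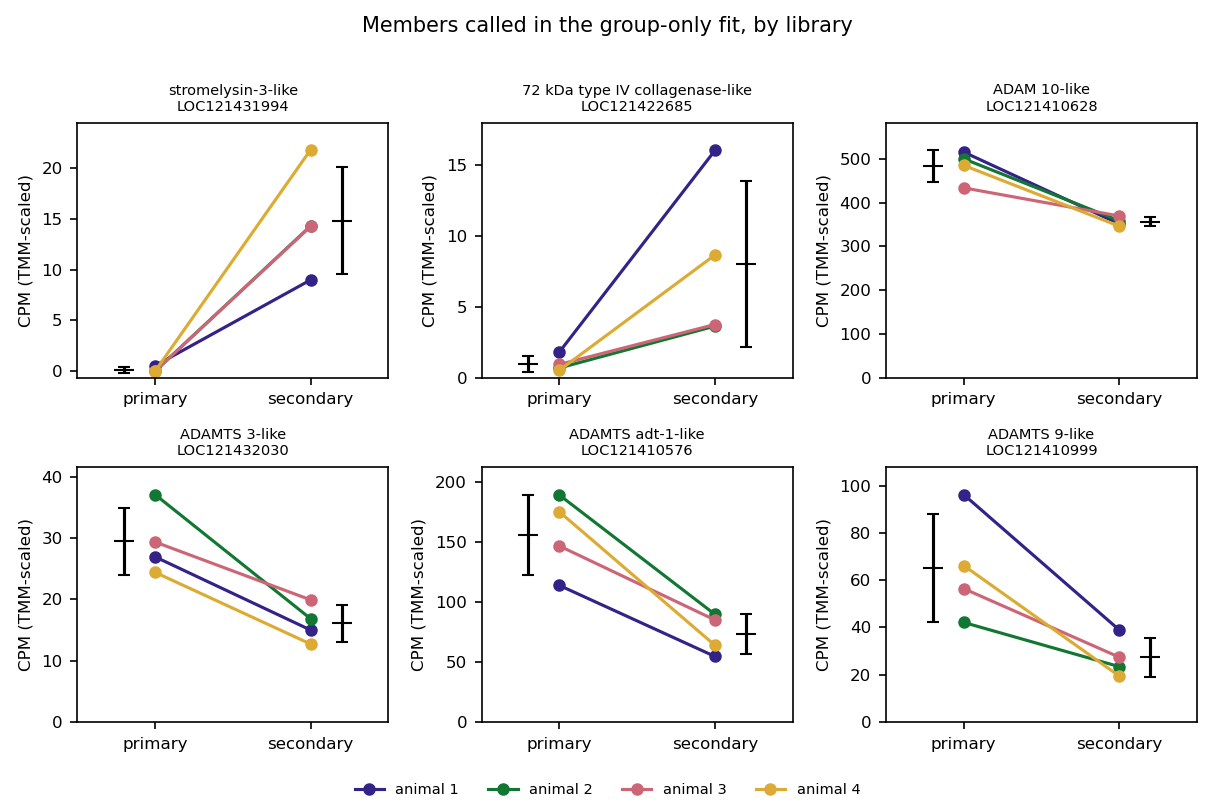
TMM-scaled CPM (y axis, from 0) in the primary and secondary library of each animal for the 6 members called in the group-only fit; lines join the libraries of 1 animal, and bars show the mean and SD of 4 libraries. The 2 matrix metalloproteinases are higher in each secondary library and the 4 ADAM and ADAMTS genes lower.

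Among the 4 ADAM genes, all tested, 1 fell, 0 rose and 3 did not pass. The unadjusted and DESeq2 counts were the same, 0 higher and 1 lower. The ADAM 10-like LOC121410628 (chromosome 3, 26156915 to 26197132), matched to bovine ADAM10, is a relative of the vertebrate sheddase that cuts Notch receptors and cadherins. It had 515, 500.0, 434 and 485 CPM in primary and 351, 359, 369 and 346 CPM in secondary spines of animals 1 to 4. The secondary libraries lay close together, and all were below the lowest primary library. Its log2 ratio was -0.44 ± 0.10 (edgeR adjusted p = 0.0251, and 0.0148 with the block, where it was lost without animal 1, 2 or 4). This small difference was called in 1 of the 8 leave-out fits, the one without primary 3 (highest edgeR adjusted p = 0.0766), and was lost when libraries were scaled by their totals alone (-0.27, edgeR adjusted p = 0.109).

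A second ADAM 10-like gene, LOC121410629, starts within 100 kb of the first on the opposite strand and has the same product name and match. It had 24.4 to 36.9 CPM in primary and 28.6 to 39.8 CPM in secondary libraries, and its log2 ratio was 0.22 ± 0.19 (edgeR adjusted p = 0.65). Within the 4 animals its secondary value was 1.03 to 1.44 of the primary value, against 0.682 to 0.852 for LOC121410628. The difference between the neighbours was not tested. The ADAM 12-like LOC121424693, related to a vertebrate protease of muscle and bone-forming tissue, had 76.4 ± 2.71 and 70.9 ± 6.90 CPM (log2 ratio -0.11 ± 0.11, edgeR adjusted p = 0.721). With scaling by library totals alone its log2 ratio was 0.06.

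Of 19 tested ADAMTS genes 3 fell, 0 rose and 16 did not pass. At an unadjusted p below 0.05 edgeR had 5 lower and 0 higher. DESeq2, with an adjusted p for 22 of the ADAMTS genes, called 4 lower and 0 higher. With the block 6 were lower and 0 higher. The lower calls are 15.8% of the tested genes in the group-only fit and 31.6% with the block, against 1.93% and 11.7% of all genes. The log2 ratio was below 0 for 15 of the 19, with a median of -0.366 (-0.390 with the block). Over all genes tested it was below 0 for 52.6%, with a median of -0.026. Of the 18 ADAMTS genes with reads in every library 8 (44.4%) were lower in secondary spines in each of the 4 animals, and 0 were higher in each. Of all 16129 tested genes with reads in every library 24.9% were lower in each animal and 21.2% higher.

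The adt-1-like LOC121410576 (chromosome 3, 24339321 to 24352083), named for an ADAMTS gene of the nematode Caenorhabditis elegans, has neither a Swiss-Prot match nor a Pfam domain in the table, so its place in the family rests on its product name. It had 114, 189, 147 and 175 CPM in primary and 54.6, 89.7, 85.1 and 63.9 CPM in secondary spines of animals 1 to 4. The groups did not overlap, and animal 1 was lowest in both. The log2 ratio was -1.09 ± 0.22 (edgeR adjusted p = 0.0164, and 0.000767 with the block). Leaving out 1 library at a time kept the call 7 times of 8, and it was lost without secondary 4 (edgeR adjusted p = 0.0591).

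The ADAMTS 9-like LOC121410999 (chromosome 3, 39854677 to 39991413) carries the GON domain that marks ADAMTS9 and ADAMTS20 in vertebrates, where ADAMTS9 cuts the proteoglycan versican. It had 96.3, 42.1, 56.5 and 66.3 CPM in primary and 39.0, 23.4, 27.4 and 19.4 CPM in secondary spines of animals 1 to 4. Every secondary library was below every primary one, and animal 1 was highest in both spines. Its log2 ratio was -1.26 ± 0.30 (edgeR adjusted p = 0.0378, and 0.00153 with the block). Its neighbour LOC121410998, also named ADAMTS 9-like, was lower in abundance at 5.12 and 2.75 CPM and did not pass (log2 ratio -0.89, edgeR adjusted p = 0.274).

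The ADAMTS 3-like LOC121432030 (chromosome 18, 1896951 to 1977508), a relative of the vertebrate procollagen N-proteinases, had 26.9, 37.1, 29.3 and 24.4 CPM in primary and 15.0, 16.8, 19.9 and 12.7 CPM in secondary spines of animals 1 to 4. The groups did not overlap. This was a log2 ratio of -0.87 ± 0.20 (edgeR adjusted p = 0.0326, and 0.00296 with the block). The calls of this gene and of the ADAMTS 9-like gene each survived 2 of the 8 leave-out fits (highest edgeR adjusted p = 0.0948 and 0.109). Both ended when libraries were scaled by their totals alone (edgeR adjusted p = 0.0638 and 0.0574). With the block both held in each of 4 fits that left out an animal.

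With the animal as a block 3 further ADAMTS genes were lower in secondary spines. Both ADAMTS-like protein 5 genes, LOC121416109 and LOC121416013 on chromosome 5, carry the spacer and thrombospondin domains and no catalytic domain, and both are matched to ADAMTS16. LOC121416109 had 47.1, 44.2, 79.5 and 41.5 CPM in primary and 22.7, 10.3, 53.7 and 16.8 CPM in secondary spines of animals 1 to 4. Animal 3 was highest in both spines, and the secondary value of animal 3 lay above 3 of the primary values. The blocked log2 ratio was -1.23 ± 0.23 (edgeR adjusted p = 0.0111, and 0.294 without the block). Without secondary library 3 the group-only fit called it too (edgeR adjusted p = 0.0342). LOC121416013 had 22.0 to 37.6 CPM in primary and 4.46 to 17.1 CPM in secondary libraries, without overlap, and a blocked log2 ratio of -1.27 ± 0.28 (edgeR adjusted p = 0.0211, and 0.114 without the block). This call was lost without animal 1 or 4 (highest edgeR adjusted p = 0.0744). The ADAMTS 16-like LOC121422074 had 6.86 to 16.4 and 5.37 to 10.3 CPM and a blocked log2 ratio of -0.57 ± 0.15 (edgeR adjusted p = 0.0288, and 0.375 without the block), and was called in 1 of 4 fits that left out an animal (highest edgeR adjusted p = 0.103). The more abundant ADAMTS-like protein 1 LOC121415323 had 97.8 ± 22.3 and 75.9 ± 32.2 CPM and did not pass (log2 ratio -0.37 ± 0.29, edgeR adjusted p = 0.604).

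**Figure D4:**
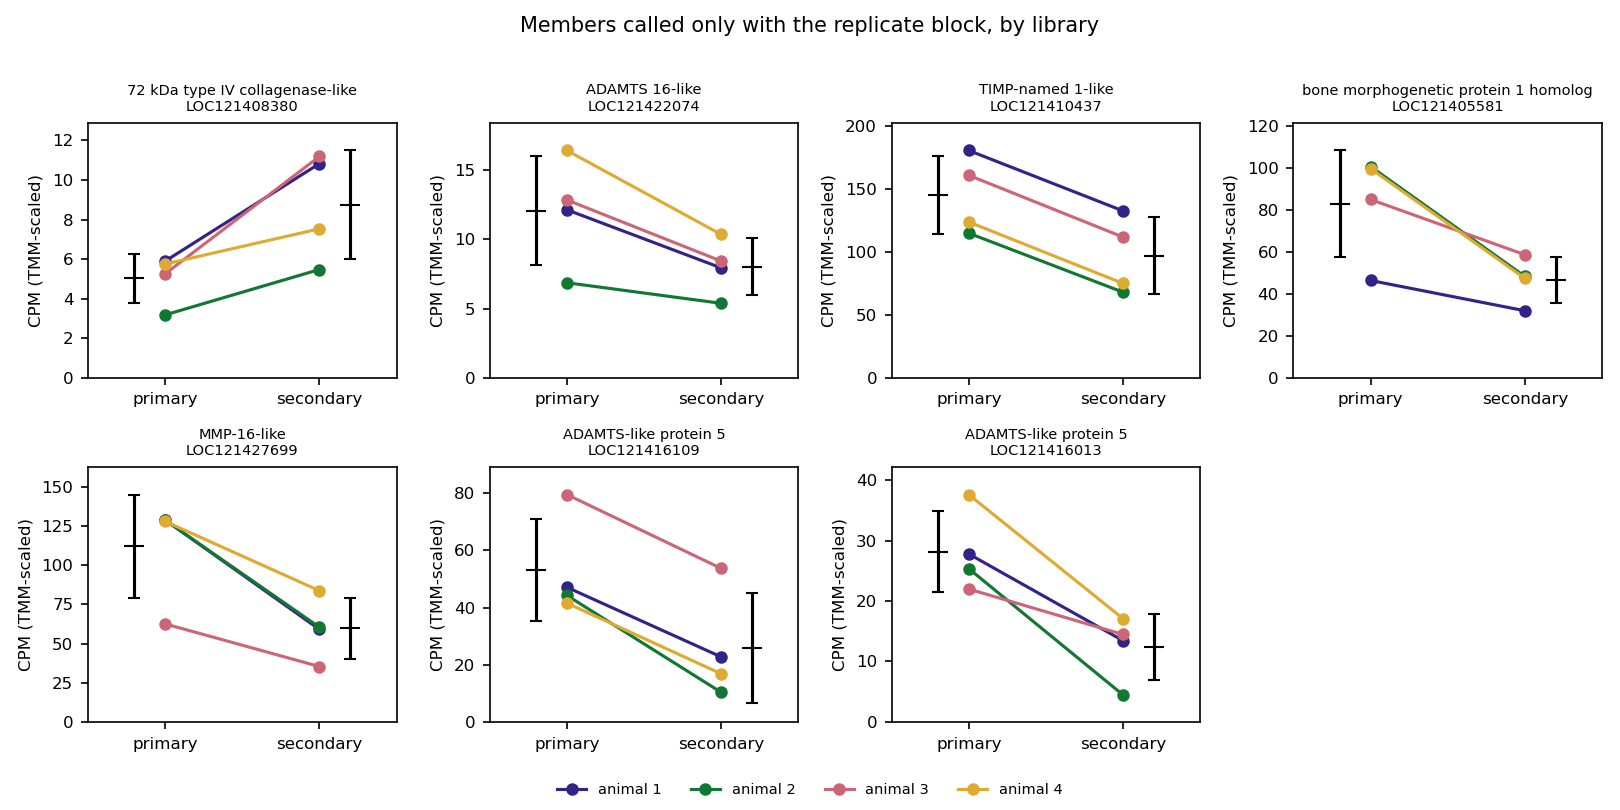
TMM-scaled CPM (y axis, from 0) in the primary and secondary library of each animal for the 7 members called with the animal as a block and not without it; lines join the libraries of 1 animal, and bars show the mean and SD of 4 libraries. All lines of a panel run in 1 direction, while the animals lie at different heights, so that most groups overlap.

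The genes with astacin-type names were mostly too low for a test, 4 of 14 being tested. Of these 0 rose, 0 fell and 4 did not pass. At an unadjusted p below 0.05 edgeR had 1 lower and 0 higher. DESeq2, with an adjusted p for 10 of the 14, called 1 lower and 0 higher. The bone morphogenetic protein 1 homolog LOC121405581 (chromosome 18, 16038617 to 16085043), matched to tolloid-like protein 1 of Xenopus, carries astacin and CUB domains. It had 46.4, 101, 85.1 and 99.8 CPM in primary and 32.0, 48.4, 58.7 and 47.5 CPM in secondary spines of animals 1 to 4. The primary value of animal 1 lay below the secondary values of the other animals, and within animals the secondary value was 0.476 to 0.690 of the primary. The blocked log2 ratio was -0.80 ± 0.13 (edgeR adjusted p = 0.00395), against -0.83 ± 0.28 without the block (edgeR adjusted p = 0.123), where DESeq2 called it (DESeq2 adjusted p = 0.046). Without primary library 1 the group-only fit called it too (edgeR adjusted p = 0.0303).

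A run of 3 nas-13-like genes, named for an astacin of Caenorhabditis elegans, lies on chromosome 2 (3089631 to 3174189). LOC121409362 had 5 reads in all libraries together and was not tested. LOC121407074 had 101 to 193 CPM in primary and 82.8 to 131 CPM in secondary libraries (log2 ratio -0.46 ± 0.24, edgeR adjusted p = 0.36). LOC121407072 stood at 109 and 106 CPM in the primary and secondary library of animal 1 and at 14.7 to 49.8 CPM in the other 6 libraries. Its log2 ratio was -0.37 ± 0.58 (edgeR adjusted p = 0.845), and between -1.12 and 0.05 in fits that left out a library.

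All 9 named tissue inhibitors lie on the plus strand of chromosome 3 between 19786242 and 20161219, a stretch of 375 kb. It holds 13 genes, of which 12 carry the inhibitor domain, 3 of these under other names. The inhibitor domain is listed for 20 genes in all, so the stretch does not hold every gene with this domain. Genes that carry it under other names are not members, and their levels are not given here. Of the 6 tested inhibitors 0 rose, 0 fell and 6 did not pass. At an unadjusted p below 0.05 edgeR had 2 lower and 0 higher, and DESeq2 called 0 of the 8 for which it gave an adjusted p. With the block 1 was lower (16.7%, against 11.7% of all genes). The log2 ratio was below 0 for 5 of the 6, with a median of -0.470, against 52.6% of all genes tested. Levels along the stretch were uneven, with the TIMP 1-like LOC121410437 and the TIMP 3-like LOC121410445 far above the rest.

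LOC121410437 (chromosome 3, 19841227 to 19850728) had 181, 115, 161 and 124 CPM in primary and 133, 68.0, 112 and 75.0 CPM in secondary spines of animals 1 to 4. Animals 1 and 3 were high in both spines and animals 2 and 4 low, so the groups overlapped. Within animals the secondary value was 0.592 to 0.734 of the primary. The blocked log2 ratio was -0.61 ± 0.09 (edgeR adjusted p = 0.00297), and -0.58 ± 0.25 without the block (edgeR adjusted p = 0.241). The gene differed among animals (edgeR adjusted p = 0.00588), and its blocked call held in each of 4 fits that left out an animal.

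LOC121410445 had 61.1, 93.7, 102 and 93.7 CPM in primary and 74.1, 59.5, 63.2 and 63.5 CPM in secondary spines. In animals 2 to 4 the secondary value was 0.619 to 0.677 of the primary, and in animal 1 it was 1.21. The log2 ratio of -0.43 ± 0.17 did not pass (edgeR adjusted p = 0.209, and 0.123 with the block). Without primary library 1 it was -0.57 and was called (edgeR adjusted p = 0.0445). The TIMP 1-like LOC121410444 had 22.3 ± 11.3 and 17.5 ± 5.83 CPM (log2 ratio -0.35 ± 0.37, edgeR adjusted p = 0.734), with a value of 0.07 without primary library 2. RECK, a membrane-anchored inhibitor of matrix metalloproteinases in vertebrates, was not matched by the name rule, but 1 gene carries its full name, LOC121426932. That gene was named after its values were seen. It had 4.97 to 7.56 CPM in primary and 7.60 to 16.1 CPM in secondary libraries (log2 ratio 0.86 ± 0.29, edgeR adjusted p = 0.126, and 0.0388 with the block), opposite in sign to most tissue inhibitors.

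**Figure D5:**
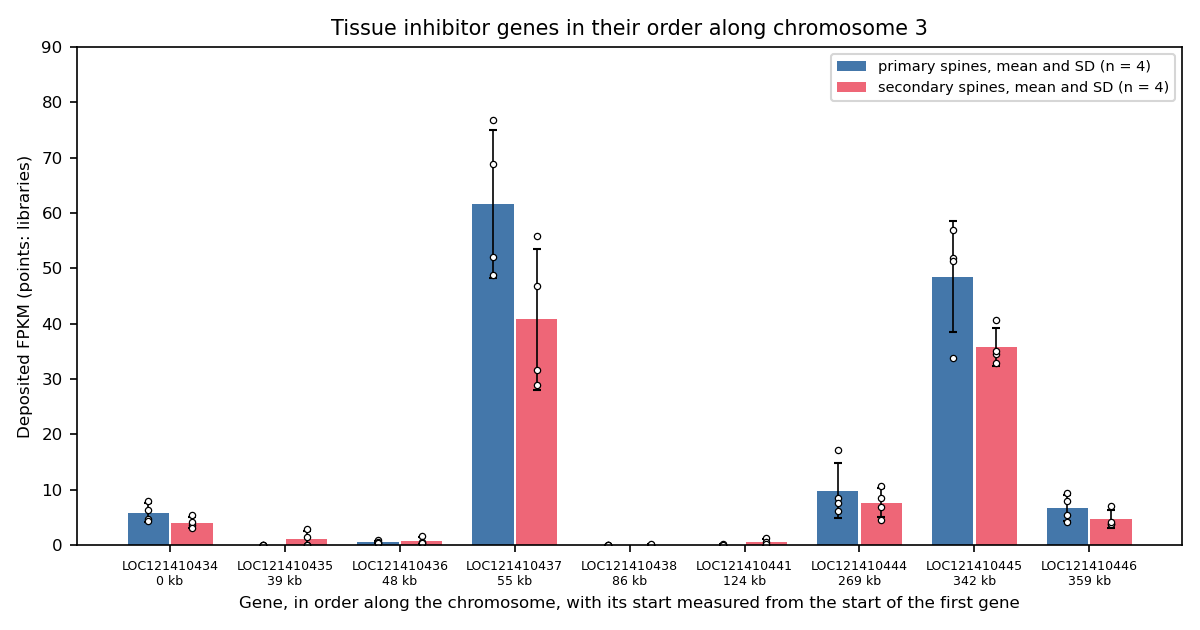
Deposited FPKM (y axis, from 0) of the 9 tissue inhibitor genes in their order along chromosome 3, with the start of each gene measured from that of the first; bars show mean and SD of 4 primary or 4 secondary libraries and points the libraries. LOC121410437 and LOC121410445 stand far above the other 7.

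Several members differed among animals. In the blocked fit 17 of the 47 tested members differed among animals (36.2%, against 37.0% of all genes), namely 8 ADAMTS genes, 5 matrix metalloproteinases, 2 astacin-type genes, 2 inhibitors and 0 ADAM genes. Of the 17, 8 were also called between the spines with the block. The smallest p belonged to the matrilysin-like LOC121417336 (chromosome 1, 55228383 to 55247031), matched to MMP18 of Xenopus. It had 20.2, 116, 15.1 and 21.3 CPM in primary and 17.0, 84.7, 19.7 and 19.4 CPM in secondary spines of animals 1 to 4. Animal 2 was high in both libraries, and the other 6 libraries lay between 15.1 and 21.3 CPM. The test among animals gave an edgeR adjusted p = 0.000232, and between spines the log2 ratio was -0.29 ± 0.80 (edgeR adjusted p = 0.931).

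The ADAMTS 6-like LOC121422076 (chromosome 1, 72235010 to 72253525), matched to mouse ADAMTS1, had 0 reads in all 4 libraries of animals 1 and 2, where a count of 0 allows 0.290 to 0.322 CPM. It had 6.73 and 6.39 CPM in the primary and 9.11 and 5.61 CPM in the secondary libraries of animals 3 and 4. The test among animals gave an edgeR adjusted p = 0.00121. The gene lies in a run of 3 ADAMTS genes on the minus strand (chromosome 1, 72167426 to 72253525). In the same run LOC121422074 had reads in each library and was highest in animal 4. The ADAMTS 17-like LOC121429125 (chromosome 15) was low in animal 4, with 2.56 and 4.29 CPM, against 11.3 to 21.6 CPM in the other 6 libraries (edgeR adjusted p = 0.00188). For neither of these genes did the spines differ past the test (edgeR adjusted p = 0.987 and 0.934).

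Genes of the matrix, the substrates of these enzymes, moved in both directions. Of 74 tested genes for collagens, laminins, fibrillins, tenascins and related proteins 6 rose, 2 fell and 66 did not pass. With the block 13 rose and 18 fell, and DESeq2, with an adjusted p for 86 of these genes, called 9 higher and 7 lower. Over all genes 5.88% rose and 1.93% fell, with the block 12.4% and 11.7%, and by DESeq2 7.25% and 3.58%. The widest difference of the genes named here was that of the tenascin-N-like LOC121430100, whose name is that of a matrix glycoprotein. It had 0.107, 0, 0.105 and 0 CPM in primary and 60.8, 13.6, 14.6 and 23.1 CPM in secondary spines of animals 1 to 4, from 2 primary and 1174 secondary reads. Secondary CPM were 539 times primary CPM, with a counting interval (95%) from 149 to 4450, and the log2 ratio was 8.76 ± 0.88 (edgeR adjusted p = 0.00127). The gene also differed among animals (edgeR adjusted p = 0.00381), animal 1 having the highest secondary level. The laminin beta-1-like LOC121416226, a basement membrane chain, had 18.7 to 27.6 CPM in primary and 60.0 to 80.5 CPM in secondary libraries (log2 ratio 1.74 ± 0.17, edgeR adjusted p = 0.00127). The laminin gamma-2-like LOC121429056 had 27.0 ± 10.5 and 111 ± 17.6 CPM (2.04 ± 0.29). Fibrillins, of the microfibrils, went both ways: the fibrillin-2-like LOC121431380 had 9.05 to 19.6 and 55.1 to 61.1 CPM, while the fibrillin-3-like LOC121411906 had 735 to 1057 and 263 to 514 CPM (log2 ratio -1.28 ± 0.22, edgeR adjusted p = 0.00921). The collagen alpha-1(X)-like LOC121427569 had 12.1 ± 2.30 and 4.88 ± 1.57 CPM (edgeR adjusted p = 0.0273).

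Of 23 tested genes for activators of metalloproteinases and for other protease inhibitors 0 rose, 2 fell and 21 did not pass. At an unadjusted p below 0.05 edgeR had 2 higher and 6 lower, and with the block 3 rose and 9 fell. DESeq2, with an adjusted p for 24 of these genes, called 1 higher and 4 lower. Of all genes 5.88% rose and 1.93% fell, with the block 12.4% and 11.7%, and by DESeq2 7.25% and 3.58%. Those that fell were the cystatin-B-like LOC121412744, an inhibitor of cysteine proteases, with 425 to 653 CPM in primary and 216 to 259 CPM in secondary libraries (log2 ratio -1.15 ± 0.16, edgeR adjusted p = 0.00364), and the papilin-like LOC121407406. Papilin is a matrix protein with ADAMTS-like domains that in Drosophila inhibits an ADAMTS enzyme. It had 371 ± 54.6 and 247 ± 31.7 CPM (log2 ratio -0.59 ± 0.14, edgeR adjusted p = 0.042). The table holds 25 genes with the catalytic domain of ADAM and ADAMTS proteins, of which 17 are members, and not all of the others were looked at. The relatives of the ADAMs and matrixins given here, named after their values were seen, did not pass in the group-only fit. The zinc metalloproteinase-disintegrin-like EoMP06 gene LOC121424843, called lower with the block, had 40.3, 52.7, 72.2 and 42.1 CPM in primary and 34.2, 38.6, 44.9 and 22.7 CPM in secondary spines of animals 1 to 4. Within animals its secondary value was 0.539 to 0.849 of the primary, while the groups overlapped. The blocked log2 ratio was -0.56 ± 0.13 (edgeR adjusted p = 0.0163, and 0.285 without the block). A further pair of relatives did not pass in either fit. The ADAM 17-like protease LOC121422381 had 26.8 ± 0.953 and 24.4 ± 3.11 CPM (edgeR adjusted p = 0.715). The macrophage metalloelastase-like LOC121409093, the single other matrixin gene of the table, had 5.38 ± 2.84 and 9.82 ± 6.67 CPM (edgeR adjusted p = 0.559).

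Markers of the cell types that a spine could hold were read beside these results. Shares of all genes for comparison were 5.88% higher and 1.93% lower, 12.4% and 11.7% with the block, and 7.25% and 3.58% by DESeq2. DESeq2 gave an adjusted p for 22 skeleton-forming, 20 muscle, 32 nerve and 45 coelomocyte and pigment cell markers, more than edgeR tested. Genes of ciliated epithelium (axonemal dynein heavy chains, tektins and radial spoke proteins) rose in secondary spines in 26 of 27 tested cases. With the block 27 of 27 rose, and DESeq2 called 27 of 28 higher. Their summed levels were 804 to 1766 CPM in primary and 4708 to 6182 CPM in secondary libraries, and none of the 28 listed was at 0. They move with the 2 matrix metalloproteinases that rose, and their part in the result was not tested, nor was that of the muscle and nerve markers called below. Skeleton-forming cell markers were detected, with 3 of 27 listed at 0. Of the 19 tested, 0 rose and 0 fell (at an unadjusted p below 0.05 edgeR had 1 higher, DESeq2 called 0, and with the block 0 were called), and they summed to 654 to 1649 and 758 to 2055 CPM. Of 19 muscle markers 2 rose and 0 fell (7 and 1 with the block, 4 and 0 by DESeq2), with sums of 1565 to 2065 and 1561 to 2419 CPM, and 1 of 22 listed was at 0. Of 29 nerve markers 1 rose and 0 fell (8 and 2 with the block, 5 and 2 by DESeq2), with sums of 2482 to 3042 and 2025 to 2596 CPM, and 1 of 36 listed was at 0. Of 38 coelomocyte and pigment cell markers 1 rose and 1 fell (2 and 4 with the block, 1 and 1 by DESeq2), with sums of 3091 to 4322 and 2755 to 4813 CPM, and 4 of 70 listed were at 0. The sums of all but the ciliated list overlapped between the spines.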

How the data were processed

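Messenger RNA of primary and secondary spines was analysed in 4 libraries of each, grouped by sample title. HISAT2 2.0.5 and featureCounts are the tools in the submitters' processing notes, and no source used here states the strand setting. The deposited counts are whole reads per gene, per the file headers. The deposited FPKM values equalled count divided by gene length and by 1 constant per library, to within 0.0001 reads. Relative to total counts the constant ran from 0.905 to 0.994 in primary and from 1.06 to 1.08 in secondary libraries, which means that depth is not the single scaling in the authors' FPKM. Gene lengths and coordinates are the deposited ones, and all 26814 genes matched the reference table of assembly Lvar_3.0, which gave the chromosome numbers. No sequence of the members was used here.

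Counts were tested with edgeR 4.0.16 in R 4.3.3 (TMM scaling, filterByExpr, robust glmQLFit, glmQLFTest, two-sided, Benjamini-Hochberg adjusted p below 0.05 over 16788 genes), with group as the single term. The design text says that the same 4 animals gave both kinds of spine. Libraries with 1 number deviated from their group together (correlations from 0.733 to 0.811), so numbers were taken as animals. Across numbers the correlations were -0.317 to -0.200. Deviations from a group mean cancel within the group, so these negative values follow from the positive ones and add no separate evidence. A replicate block was added in a second fit, and the F test of its 3 animal terms gave the differences among animals. Mean chi-square per gene between libraries of a group was at least 35.2, so none was a duplicate. Alternatives were DESeq2 1.42.0, other scalings and filters, a gene length correction and leaving out libraries or animals. Scripts were tested on simulated counts.

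Members were chosen by product name. Members and lists were chosen with earlier results of these data known. Exclusions were added to the lists after reading names, which removed 60 entries. Named with values were the stromelysin-3-like and the first MMP-16-like gene, all called members, up to 4 further blocked calls per group, the 3 most abundant tested members per group, up to 5 members with the smallest p among animals and up to 4 called genes per list and direction. Others, such as the relatives by domain and the RECK gene, were named after their values were seen. Intervals and floors cover counting error.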

Additional observations from a re-analysis of the deposited data

Results flagged for a closer look

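Of 48 groups of 4 libraries examined for the named members, 7 held a library far from the other 3 (past Dixon's 95% critical value). Chance flags about 1 in 20 groups. Both groups of the matrilysin-like LOC121417336 were among them, with 116 CPM in primary library 2 and 84.7 CPM in secondary library 2, which come from the same animal. The nas-13-like LOC121407072 stood out with 109 CPM in primary library 1, beside 106 CPM in the secondary library of the same animal. The MMP-16-like LOC121427699 was lowest in primary library 3 at 62.6 CPM, and the ADAMTS-like protein 5 gene LOC121416109 was highest in the same library at 79.5 CPM. In both cases the secondary library of animal 3 was also the extreme of its group. The ADAMTS-like protein 1 LOC121415323 reached 124 CPM in secondary library 1, against 53.7 to 63.8 CPM in the other secondary libraries. The stromelysin-3-like LOC121431994 had reads in primary library 1 alone among the primary libraries, at 0.536 CPM.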

How the results depend on the processing

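Over all alternatives, values of named members kept direction and side of the threshold in 407 cases, lost the call in 39, gained it in 27 and changed sign in 12. Counts stayed within 1.5 times in 101 cases and moved further in 60. The cause of these changes was not tested. The count of members lower in secondary spines, 4 in the group-only fit, was 10 with the replicate block, 10 with DESeq2 and the block, 11 with the gene length correction and the block, and 1 with scaling by library totals, which moved the median of all genes to 0.137. Leaving out a library gave 0 to 3 lower and 1 to 2 higher. Leaving out an animal with the block gave 7 to 9 lower and 2 to 3 higher. Matrix genes higher (6) became 13 with the block, 12 with DESeq2 and the block and 12 with length and block. Matrix genes lower (2) became 18 with the block, 7 with DESeq2, 18 with DESeq2 and the block, 7 with the length correction, 22 with length and block, and 1 to 5 without a library. Activators and other inhibitors higher (0) became 3, 1, 4 and 2 with the block, DESeq2, DESeq2 and the block, and length and block, and were 0 without any 1 library. Those lower (2) became 9, 4, 11 and 10 in the same order, 1 with library totals, 1 with no filter, 4 with the length correction and 1 to 3 without a library. Cell type markers higher (30) became 49 with DESeq2 and the block, and were 29 to 32 without a library. Those lower (1) became 7 with the block, 3 with DESeq2, 7 with DESeq2 and the block, 2 with RLE scaling, 0 with library totals, 3 with the length correction, 12 with length and block, 3 with the name patterns before exclusions and 0 to 1 without a library. Fold changes that changed sign were those of LOC121424693 (0.057 with library totals) and, without a library, of LOC121407072 (-1.123 to 0.051), LOC121432191 (-0.026 to 0.274), LOC121417336 (-1.21 to 0.91), LOC121410444 (-0.559 to 0.065), LOC121422076 (-0.80 to 0.79) and LOC121429125 (-0.11 to 0.52), none of them called. The 25 members below the filter had at most 116 reads over the 8 libraries. Without the filter 20 members differed among animals, against 17 with it.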

Other observations

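Some untested members had their reads in few animals, and these were named after their values were seen. The tolloid-like protein 2 gene LOC121407973, matched to mouse cubilin, had 42 primary and 46 secondary reads in animal 4, 2 in secondary library 3 and 0 in the other 5 libraries. The TIMP 1-like LOC121410435 had 77 and 37 reads in secondary libraries 1 and 3, 2 in primary library 4 and 0 in the other 5. The TIMP 3-like LOC121410441 in the same stretch of chromosome 3 was alike, with 20 and 7 reads in secondary libraries 1 and 3 and at most 2 in any other. The neighbours LOC121410434 and LOC121410436 had reads in all 8 libraries, and the highest count of LOC121410436, 42, was also in secondary library 1.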
